A study of Mus musculus with 6 samples.

Results

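The genes described here are 8 CC chemokines that monocytes and macrophages can make: Ccl3, Ccl4, Ccl5, Ccl6, Ccl9, Ccl17, Ccl22 and Ccl24. They were chosen by gene name, 8 of the 37325 gene names on the array, and 9 of its 56605 non-control probes carry 1 of them (2 probes for Ccl4, 1 for each other gene). The cells were bone marrow monocytes, purified on magnetic columns from C57BL/6J mice aged 6 to 8 weeks. The 3 control samples were cultured for 60 h with M-CSF at 20 ng/mL, under which monocytes mature into macrophages. The 3 IFN-beta samples had the same M-CSF and also 100 U of the type I interferon IFN-beta. Each sample went to 1 one-colour (Cy3) Agilent array. The question was how the interferon bears on these chemokine transcripts while monocytes mature.

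CC chemokines are small secreted proteins that draw leukocytes along a gradient by way of G protein-coupled receptors. Ccl3, Ccl4 and Ccl5 attract monocytes, T cells and NK cells. Ccl6 and Ccl9 are rodent chemokines that act on CCR1, Ccl17 and Ccl22 are the ligands of CCR4, a receptor of T helper and regulatory T cells, and Ccl24 (eotaxin-2) acts on CCR3 of eosinophils and basophils. In macrophages Ccl17, Ccl22 and Ccl24 are known for their rise with IL-4, whereas Ccl3, Ccl4 and Ccl5 are known for their rise with microbial products.

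A level here is the log2 processed signal of a probe minus the 75th percentile of that signal on its array. Levels of different probes cannot be set against each other. The arrays differed before any chemokine was read. The 75th percentile was 549, 528 and 305 on controls 1, 2 and 3 and 236 to 244 on the IFN-beta arrays. Over 26656 probes the robust SD of the difference between controls 1 and 2 was 0.116, against 0.344 and 0.363 between control 3 and these 2 arrays. All 10 monocyte and macrophage markers lay well above background on all 6 arrays. All 12 markers of fibroblasts and connective tissue did as well on controls 1 and 2, where their summed level was 9.23 and 9.43, beside 9.46 and 9.40 for the monocyte markers. On control 3 the fibroblast sum was 0.93, and on the IFN-beta arrays 1.38 to 1.68. Values against control 3 alone therefore stand beside the result of each chemokine tested. In that comparison the lone control is assumed to vary as the IFN-beta arrays do.

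With IFN-beta, Ccl24 rose 5.02-fold, Ccl4 3.0-fold, Ccl6 2.26-fold and Ccl5 1.56-fold. Ccl3 was 1.62-fold and Ccl9 1.33-fold higher without passing the test, and none of the 6 genes tested was called lower. Of the 6 genes tested 4 passed in limma at an adjusted p under 0.05, where 19.8% of all 19503 genes tested passed, 11.8% as higher and 8.02% as lower. For 5 of the 6 every IFN-beta array lay above every control, as for 23.4% of all genes. The median log2 fold change of the 6 was 0.93, beside 0.10 over all genes. Counts of genes that rose or fell in the lists below are to be read beside the shares of 11.8% and 8.02%. Ccl17 and Ccl22 were not tested, since each was dim on at least 1 array of both groups. Nothing in the labels places the replicates in separate mice or cultures, so p-values measure only the spread between these samples, which may be technical.

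**Figure D1:**
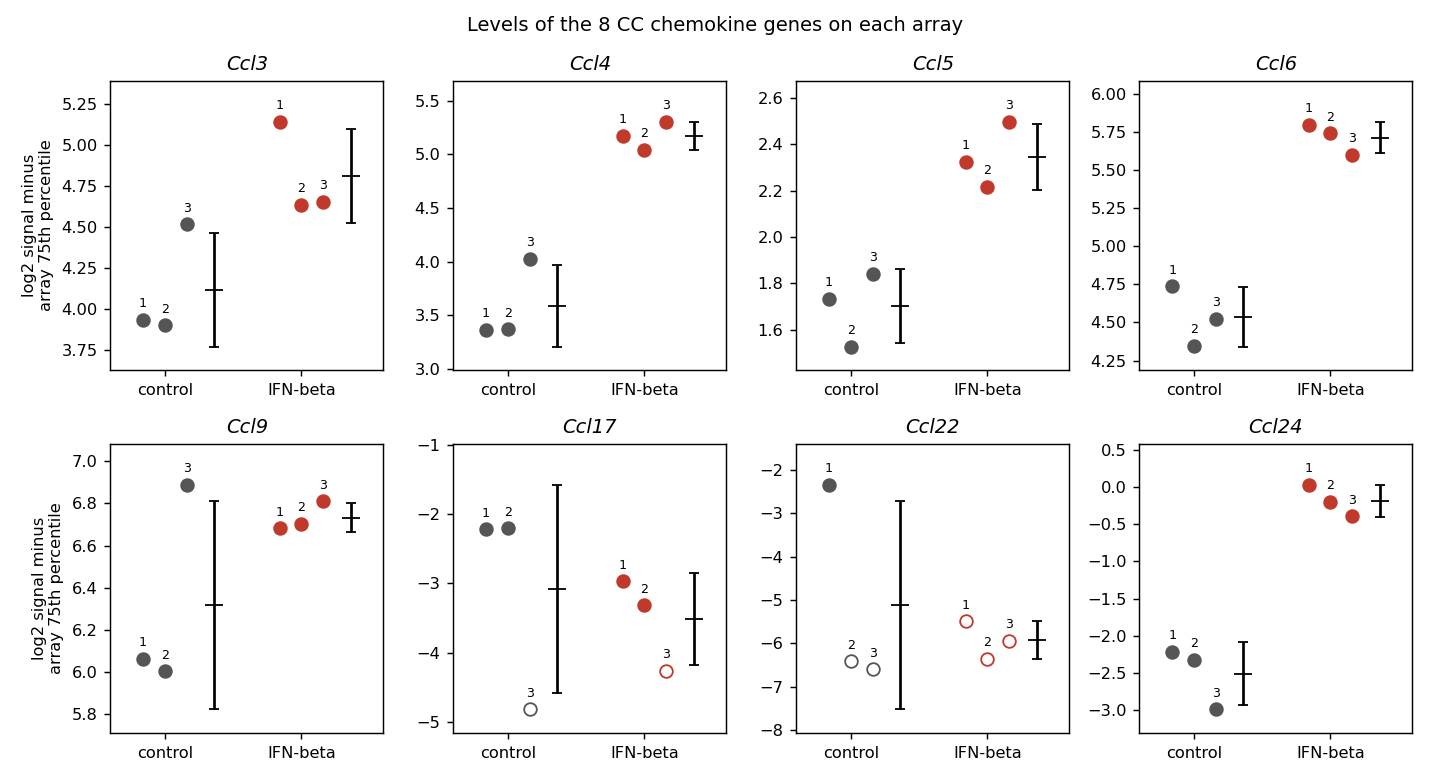
Level of each of the 8 chemokine genes on each array (points, numbered by replicate; y axis, log2 processed signal minus the array's 75th percentile), with the group mean ± SD beside them. Open points were not well above background. The groups lie apart for Ccl3, Ccl4, Ccl5, Ccl6 and Ccl24, while control 3 of Ccl9, at 6.89, lies above all 3 IFN-beta arrays.

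Of Ccl3, Ccl4 and Ccl5, Ccl4 had the widest gap between the groups. Its probe (chromosome 11, 83478052 to 83478111, mm9) stood at 3.37, 3.37 and 4.02 on controls 1, 2 and 3 and at 5.18, 5.04 and 5.30 on IFN-beta 1, 2 and 3. Every IFN-beta array was above every control, with control 3 the nearest. The log2 fold change was 1.59 ± 0.22 (SE, 3 arrays per group, as for all fits; limma adjusted p = 0.00297). The second Ccl4 probe, which shares 46 of its 60 bases with the first, showed the same order of groups: 2.83, 2.79 and 3.38 in the controls and 4.59, 4.36 and 4.52 with IFN-beta, a difference of 1.49. Against control 3 alone Ccl4 was higher by 1.15 (adjusted p = 0.0273). With slide as a block, which sets IFN-beta 1 against the 3 controls of its slide, the difference was again 1.59 but the adjusted p was 0.0512.

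Ccl3, the neighbour of Ccl4, differed less and did not pass the test. Its levels (probe at chromosome 11, 83461358 to 83461417) were 3.93, 3.90 and 4.51 in the controls and 5.14, 4.63 and 4.65 with IFN-beta. The groups did not overlap, but control 3 came close to IFN-beta 2 and 3, and IFN-beta 1 stood above the other two. The log2 fold change of 0.69 ± 0.24 had a 95% interval from 0.14 to 1.25 and an adjusted p of 0.0772. It was 0.89 without control 3 (adjusted p = 0.0137) and 0.29 against control 3 alone (adjusted p = 0.553). On each array the Ccl4 level minus the Ccl3 level was -0.57, -0.53 and -0.49 in the controls and 0.04, 0.41 and 0.65 with IFN-beta. The 2 log2 fold changes thus differed by 0.89, with no overlap between arrays of the groups. The exact 2-sided permutation test over the 20 splits of the arrays gave p = 0.1, the smallest it can give (adjusted over 2 such pairs, also 0.1).

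Ccl5, also called RANTES and made by T cells, NK cells and activated macrophages, rose slightly. Its levels (probe at chromosome 11, 83339296 to 83339355) were 1.73, 1.53 and 1.84 in the controls and 2.32, 2.22 and 2.50 with IFN-beta. All 3 IFN-beta arrays were above all 3 controls, and control 3 was the nearest control. The log2 fold change was 0.65 ± 0.17 (adjusted p = 0.0358). Leaving out control 1, control 2 or any IFN-beta array ended this call (adjusted p = 0.0794 at the lowest and 0.156 at the highest), and so did the comparison with control 3 alone (0.51, adjusted p = 0.22). Scaling by spike-in probes ended it as well (0.33, adjusted p = 0.419). Before scaling, the Ccl5 signal was 1826, 1521 and 1093 in the controls and 1224, 1098 and 1363 with IFN-beta, so that the groups overlapped. The groups lay apart for Ccl5 after the arrays were scaled, by the 75th percentile or by quantile normalization (0.57, adjusted p = 0.0235). In the deposited value table they also lay apart, at 10.24, 10.03 and 10.21 in the controls and 10.74, 10.66 and 10.85 with IFN-beta. Signals before scaling overlapped for Ccl3 and Ccl6 as well, and not for Ccl4 or Ccl24.

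Ccl6, known as C10 and made by cells of the monocyte and granulocyte lines, differed little in its scaled level between control 3 and the other controls. Its levels (probe at chromosome 11, 83401997 to 83402056) were 4.74, 4.35 and 4.53 in the controls and 5.80, 5.74 and 5.60 with IFN-beta. Control 3 lay between the other controls, and all IFN-beta arrays were above them. Before scaling the Ccl6 signal was 14649, 10756 and 7034 in the controls and 13601, 12632 and 11699 with IFN-beta, with control 1 the highest. The log2 fold change was 1.17 ± 0.17 (adjusted p = 0.00365). It was 1.17 without control 3 (adjusted p = 0.00304), 1.19 against control 3 alone (adjusted p = 0.0222) and 1.26 with slide as a block (adjusted p = 0.0441).

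Ccl9, the nearest tested neighbour of Ccl6 on its lower side, with probes 13774 bases apart, had no such gap. Its levels (probe at chromosome 11, 83388223 to 83388282) were 6.06, 6.00 and 6.89 in the controls and 6.68, 6.70 and 6.81 with IFN-beta. Control 3 was the highest of the 6 arrays, and controls 1 and 2 the lowest. The log2 fold change was 0.41 ± 0.25, with a 95% interval from -0.18 to 1.004 (adjusted p = 0.279), an interval that holds the 0.65 of Ccl5. Before scaling the Ccl9 signal was 36700, 33910 and 36190 in the controls and 25098, 24609 and 27105 with IFN-beta, lower on every IFN-beta array. After scaling the direction depended on the controls: 0.70 without control 3 (adjusted p = 0.00545) and -0.16 against control 3 alone (adjusted p = 0.666). The Ccl6 level minus the Ccl9 level was -1.32, -1.66 and -2.36 in the controls and -0.88, -0.96 and -1.21 with IFN-beta. That difference of 0.76 between the 2 log2 fold changes separated the groups; it was 0.47 without control 3 and 1.34 against control 3 alone. It too was at the smallest p the exact test allows (exact p = 0.1, 2-sided, adjusted 0.1).

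The bases before the annotated starts of Ccl6, which rose, and of its neighbours Ccl9 and Ccl3, which did not pass the test, are shown so that these promoters can be read side by side. They come from RefSeq (GRCm38.p6, minus strand, 250 bases up to the start, 5′ to 3′), where 5 of the 8 genes had an entry. Capitals mark matches to AGGAAG on either strand (here CTTCCT). These letters hold GGAA, the core bound by PU.1 and other ETS factors.
Ccl6 chr11:83593088-83593337: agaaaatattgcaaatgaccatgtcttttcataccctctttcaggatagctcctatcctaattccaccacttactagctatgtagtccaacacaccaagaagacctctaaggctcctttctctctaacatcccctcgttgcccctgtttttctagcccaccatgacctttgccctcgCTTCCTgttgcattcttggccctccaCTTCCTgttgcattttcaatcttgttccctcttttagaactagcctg
Ccl9 chr11:83578637-83578886: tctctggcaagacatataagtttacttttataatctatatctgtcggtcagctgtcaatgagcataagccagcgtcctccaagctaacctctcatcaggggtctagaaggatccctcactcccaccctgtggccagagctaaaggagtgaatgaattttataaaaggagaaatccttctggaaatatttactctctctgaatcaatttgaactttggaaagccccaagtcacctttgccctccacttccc
Ccl3 chr11:83649379-83649628: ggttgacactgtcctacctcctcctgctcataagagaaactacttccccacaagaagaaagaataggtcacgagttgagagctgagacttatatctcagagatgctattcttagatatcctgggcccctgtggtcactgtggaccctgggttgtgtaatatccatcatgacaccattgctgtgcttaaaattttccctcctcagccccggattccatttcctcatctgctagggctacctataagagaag
Ccl6 held 2 such matches, 73 to 68 and 47 to 42 bases before its start. Ccl9 and Ccl3 held no match to the whole of AGGAAG, although the shorter GGAA or its reverse TTCC occurs in both windows. The promoters of Ccl17 and Ccl22, which were not tested, held 1 match to AGGAAG each, at 57 to 52 and 17 to 12 bases before the start. An AGGAAG match was found in 29.5% of 32851 mouse promoters of this length. The windows of Ccl6 and Ccl9, extended past the start, aligned over 74 columns with 59 identical bases (79.7%), from 59 bases before to 15 after the Ccl6 start and from 18 before to 49 after that of Ccl9. None of the 5 promoters, those of Ccl17 and Ccl22 included, held the interferon-response letters (GAAA, any 2 bases, GAAA; in 2.98% of all promoters) or the NF-kB letters (GGGA, any base, TTTCC; 0.356%) on either strand. Ccl17 held TTCTCTGGAA, a match to the STAT6 letters (TTC, any 4 bases, GAA; 5.85% of promoters, both strands), 154 to 145 bases before its start. It also held TTCTTTGAA, a match to the STAT letters TTCNNNGAA (7.02%), 99 to 91 bases before. Such a match describes letters in a window and is no measurement of binding.

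Of the chemokines tied to IL-4, Ccl24 rose, with the highest log2 fold change of the 6 genes tested. Its probe (chromosome 5, 136046485 to 136046544) stood at -2.21, -2.33 and -2.99 in the controls and at 0.04, -0.19 and -0.39 with IFN-beta. All 6 values were well above background, control 3 was the lowest, and the groups lay far apart. The log2 fold change was 2.33 ± 0.25 (adjusted p = 0.000807). Control 3 widened the difference for Ccl24, which was 2.81 against that array alone (adjusted p = 0.00271) and 2.09 without it (adjusted p = 0.000338). With slide as a block Ccl24 was 2.55 higher (adjusted p = 0.0148). With normexp background correction its rise was smaller, 3.34-fold with percentile scaling and 3.13-fold with quantile normalization (adjusted p = 0.000107 and 0.000304).

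The ligands of CCR4 were dim. Ccl17 (probe at chromosome 8, 97335770 to 97335829) stood at -2.22, -2.20 and -4.81 in the controls and at -2.97, -3.32 and -4.26 with IFN-beta. Control 3 and IFN-beta 3 were not well above background, and the IFN-beta arrays lay between the controls. Every IFN-beta array was below controls 1 and 2 and above control 3. Ccl22 (probe at chromosome 8, 97274709 to 97274768) was well above background on control 1 alone, at -2.34, with -6.41 and -6.60 on controls 2 and 3 and -5.49, -6.36 and -5.94 with IFN-beta. Controls 1 and 2, otherwise nearly alike, differed there by more than for any other of the 8 genes. No fold change is given for Ccl17 or Ccl22, since in both groups some arrays hold only dim values. The difference between these genes and Ccl24 was not tested.

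**Figure D2:**
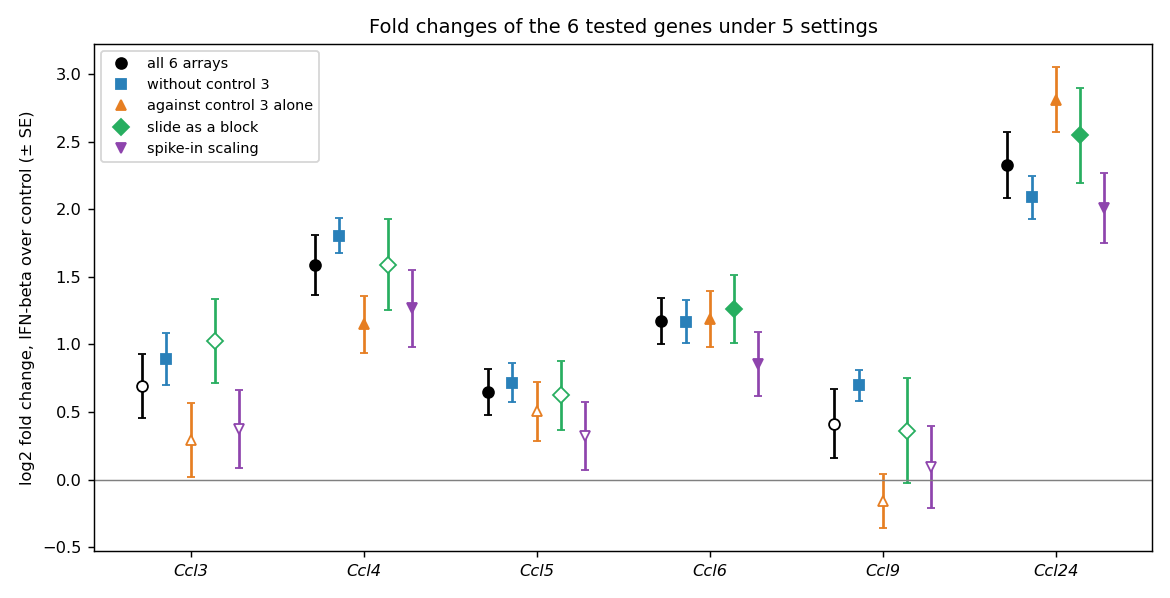
Log2 fold change (± SE) of the 6 tested chemokine genes with all 6 arrays, without control 3, against control 3 alone, with slide as a block and with spike-in scaling. Filled symbols had an adjusted p under 0.05. Over these settings Ccl24 runs from 2.01 to 2.81, Ccl4 from 1.15 to 1.81, Ccl6 from 0.86 to 1.26, and Ccl9 from -0.16 to 0.70.

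Counted over settings, 3 of 6 genes (Ccl4, Ccl6 and Ccl24) were higher against control 3 alone, where 5.11% of all genes were called higher. Without control 3 all 6 were higher, where 27.6% of all genes were called higher. With slide as a block, 2 of 6 (Ccl6 and Ccl24) were higher, where 3.41% of all genes were. Within slide 1, where IFN-beta 1 stands alone, 0 of the 6, and 0 of 7 with Ccl17, passed in limma, where 1.02% of all genes were called higher, and 4 had an unadjusted p under 0.05. With controls 1 and 2 averaged as 1 sample, an alternative chosen after seeing the data, Ccl5 lost its call (0.61, adjusted p = 0.138), where 6.03% of all genes were called higher. Spike-in scaling moved the median of all genes from 0.10 to -0.22. It left Ccl24 at 2.01, Ccl4 at 1.27 and Ccl6 at 0.86, all called, where 5.14% of all genes were called higher, and Ccl3 at 0.37 and Ccl9 at 0.09.

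Of the 5 chemokine genes on chromosome 11, which lie in 1 cluster, 3 rose. Of the 10 other genes tested within 150 kb on either side, 3 rose and 2 fell. Beside Ccl4, Wfdc17 fell by 1.91 ± 0.22 (adjusted p = 0.00108), and Wfdc18, which like it encodes a small secreted protein of the whey acidic protein family, fell by 1.82 (adjusted p = 0.00135). Against control 3 alone both were called lower too (adjusted p = 0.0157 and 0.018). On the other side, next to Ccl5, Taf15, a gene for an RNA-binding protein, rose by 0.76 ± 0.17 (adjusted p = 0.0202). The call of Taf15 held when control 3 or IFN-beta 3 was left out and ended without any other array (adjusted p = 0.0613 to 0.0952). Cx3cl1, the ligand of the monocyte receptor CX3CR1, lies between Ccl22 and Ccl17 on chromosome 8 and was at -2.55 ± 1.09 (adjusted p = 0.135), or 0.42 against control 3 alone (adjusted p = 0.275). Ciapin1, on the far side of Ccl17, rose by 0.78 (adjusted p = 0.0313), a call that held when control 3 or IFN-beta 1 was left out but ended without any other array (adjusted p = 0.105 to 0.135) and against control 3 alone (0.50, adjusted p = 0.266). Arl2bp, below Ccl22, was at 0.07 (adjusted p = 0.792). Of the neighbours of Ccl24, Rhbdd2 rose by 1.55 ± 0.27 (adjusted p = 0.0073, or 0.0297 against control 3 alone) and Hip1 was at -0.28 (adjusted p = 0.305). Genes beside the chemokines thus moved in both directions.

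**Figure D3:**
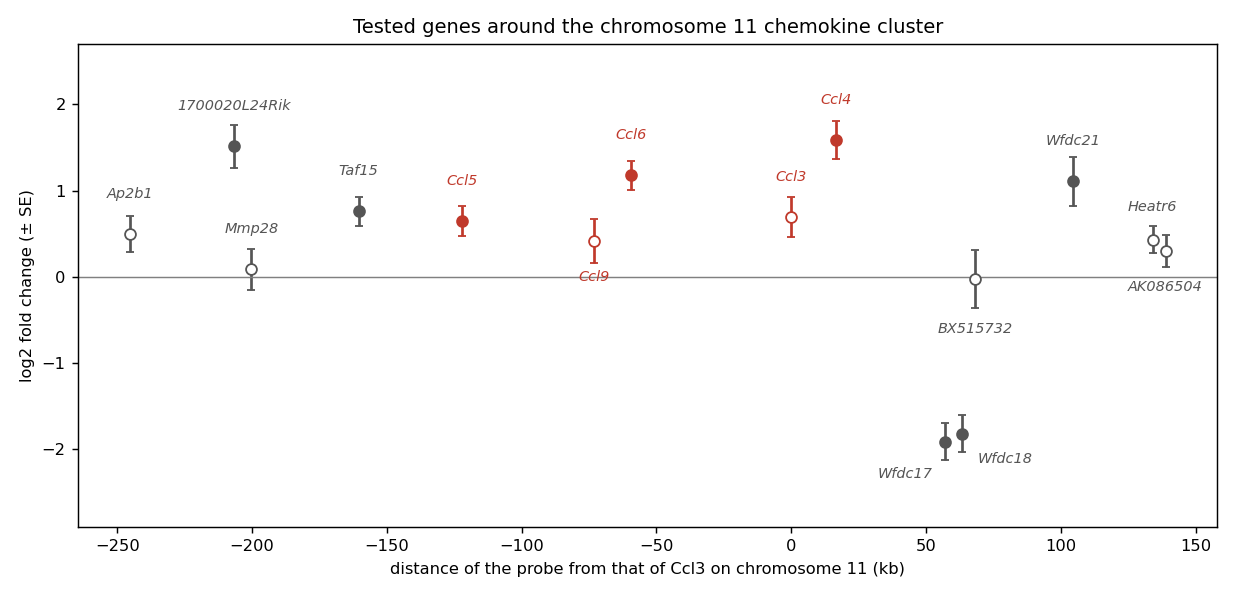
Log2 fold change (± SE) of the 15 tested genes around the chromosome 11 chemokines, by distance of the probe from that of Ccl3 in kb. Chemokines are red, others grey, and filled points had an adjusted p under 0.05. Ccl4 is at 1.59 and Wfdc17, its neighbour, at -1.91.

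Receptors of several of these ligands were measured in the same samples, which need not mean the same cells. Ccr3, the receptor of Ccl24 and Ccl5, rose from -2.88, -3.15 and -2.65 in the controls to 0.00, -0.37 and -0.83 (2.49 ± 0.25, adjusted p = 0.000662). It remained called against control 3 alone, at 2.25 (adjusted p = 0.0145). Ccr1, the receptor of Ccl6 and Ccl9, was at -0.92 ± 0.30 (adjusted p = 0.0645), and Ccr4, the receptor of Ccl17 and Ccl22, was not well above background on any array. The scavenging receptors Ackr1 and Ackr2 were above background on controls 1 and 2 alone, the arrays with bright fibroblast markers. Of these 5 receptors 2 were tested, and Ccr3 alone passed.

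The other CC chemokine ligands set the scale of these changes. Of 13, 7 were tested, 3 rose and 1 fell, with a median of 1.38. That median is the value of Ccl8 (1.38 ± 2.01, limma adjusted p = 0.657), whose direction depended on the controls. Ccl8 stood at 2.01, 2.01 and -6.29 on controls 1, 2 and 3 and at 0.43, 0.48 and 0.96 with IFN-beta. It was at -1.39 without control 3 and at 6.92 against control 3 alone. Ccl8 was well above background on 2 controls, and so passed the filter only through the IFN-beta arrays. Ccl12, Ccl7 and Ccl2, ligands of CCR2 that recruit monocytes, rose by 6.20, 4.49 and 2.21 (adjusted p = 7.87e-05, 0.000106 and 0.000928), and were called against control 3 alone at 6.96, 3.83 and 1.68 (adjusted p = 0.000464, 0.000848 and 0.0061). Ccl27a fell by 2.31 (adjusted p = 0.0176), but was at -1.03 against control 3 alone (adjusted p = 0.0525) and at -2.95 without it. Its call ended also when control 1 was left out (adjusted p = 0.0512), and likewise without IFN-beta 2 (0.0684) and without IFN-beta 3 (0.0575). Against control 3 alone the median of the 7 was 1.68. Without control 3, 4 of this list were called higher and 5 lower, where 6241 and 4725 of all 22637 genes were. More of the 13 passed the filter on dim probes there. Among the 5, Ccl11, Ccl19 and Ccl21a passed it only through controls 1 and 2, where they were high. They were dim on every IFN-beta array, so their calls as lower follow from the filter. Ccl24, at 2.33, was near Ccl2 in size, and Ccl4, at 1.59, was below it. The labels' interferon was seen in the check genes: all 8, among them Ifit3, Mx1, Rsad2 and Ifit1, rose, with a median of 4.26, and 3.68 against control 3 alone.

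Early inflammatory genes, which with Ccl3 and Ccl4 respond to NF-kB signals in macrophages, had no common direction. Of 11 tested, 2 rose and 2 fell, where 11.8% and 8.02% of all genes did, and the median was -0.32. Ier3, an immediate early gene, rose by 0.85 (adjusted p = 0.0175) and Il6 by 3.13 (adjusted p = 0.0191). Icam1, an adhesion molecule, fell by 0.64 (adjusted p = 0.0325). Against control 3 alone Ier3 and Icam1 were not called (0.69 and -0.79, adjusted p = 0.159 and 0.075), and Il6 was at 4.98 (adjusted p = 0.000749), or 2.21 without control 3. The call of Ier3 held when control 3 or IFN-beta 1 was left out and ended without any other array (adjusted p = 0.0684 to 0.0809), and that of Icam1 without any array but control 3 (0.0727 to 0.114). The call of Il6 ended without any 1 IFN-beta array (0.0591 to 0.0636). Cxcl1, a neutrophil chemokine that was not well above background on any IFN-beta array, passed the filter only through the controls. It fell at least 33.6-fold (adjusted p = 0.0147), and against control 3 the bound was 3.87-fold. Its call ended without IFN-beta 2 or IFN-beta 3 (adjusted p = 0.0591 and 0.0561). Such a bound divides the brighter group's mean by the lowest signal well above background on the dim arrays, or by the dim value itself where that is higher. Tnf, at 0.74 (adjusted p = 0.0847), resembled Ccl3 in size.

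Genes of the IL-4 and STAT6 programme, to which Ccl17, Ccl22 and Ccl24 belong, rose more often than they fell. Of 12 tested, 6 rose and 1 fell, where 11.8% and 8.02% of all genes did. The median was 0.97, and 0.79 against control 3 alone. Retnla was too dim on some arrays of both groups to be tested. It stood at 1.30, 0.46 and -6.43 on controls 1, 2 and 3 and at -3.76, -3.27 and -3.61 with IFN-beta. Mgl2, a macrophage lectin, rose by 1.72 (adjusted p = 0.000373) and Pdcd1lg2, which encodes the PD-1 ligand PD-L2, by 2.49 (adjusted p = 0.000377). Alox15, a lipoxygenase gene dim on all controls, passed the filter only through the IFN-beta arrays. It rose at least 8.17-fold (adjusted p = 0.00056), and against control 3 the bound was 5.44-fold. Il13ra1, a subunit of the IL-4 and IL-13 receptor, fell by 1.58 (adjusted p = 0.000865). Against control 3 alone Mgl2 and Pdcd1lg2 were called higher, at 1.67 and 2.16 (adjusted p = 0.00635 and 0.00648), and Il13ra1 lower, at -1.41 (adjusted p = 0.015).

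**Figure D4:**
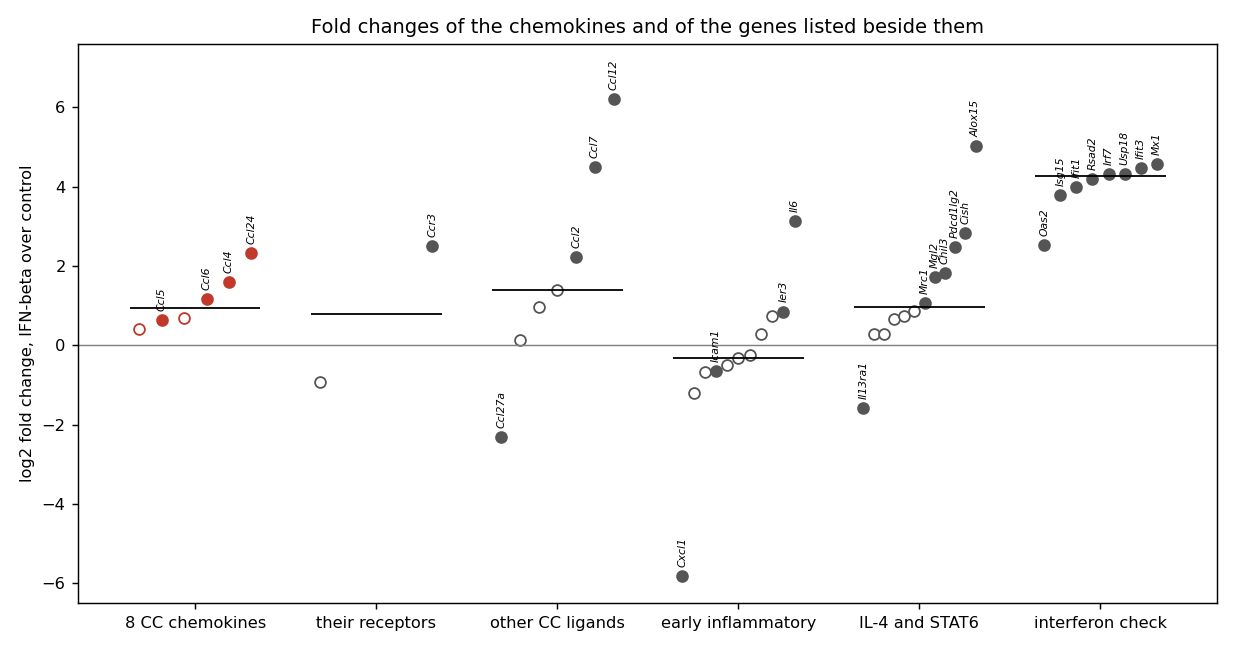
Log2 fold changes of the tested chemokine genes (red) and of the genes of 5 lists (grey). Each point is a gene, filled where the adjusted p was under 0.05, and the bar is the list's median. Cxcl1 and Alox15, dim in 1 group, stand at fitted values that are no bounds. The medians run from -0.32 for early inflammatory genes to 4.26 for the interferon check, and that of the 6 chemokines is 0.93.

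Among all tested genes with a symbol, the profiles closest to a called chemokine were found by Pearson's r over the 6 arrays, a description of 6 points in 2 groups. For Ccl4 these were Irf1, Slfn9 and Rgs1 (r = 0.9998, 0.9998 and 0.9996), of which Irf1, an interferon-regulated transcription factor, was 1.24 higher on the log2 scale. For Ccl24 they were G0s2, Bnip5 and Dcaf12l2 (r = 0.999, 0.9978 and 0.9964). For Ccl6 they were Olfr576, BC107364 and Zfp608 (r = 0.9979, 0.9947 and 0.9945), and for Ccl5 Dhx29, Usf1 and Ric1 (r = 0.9986, 0.9968 and 0.9949).

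Several of these chemokines are also made by other cells, whose markers moved with the groups. Markers of basophils, mast cells and eosinophils, cells that make Ccl3, Ccl4 and Ccl6 and carry CCR3, were all above background on all 6 arrays. Of 12, 10 rose and 0 fell (8 and 0 against control 3 alone), with a median of 2.57, and their summed level was 3.40 to 4.15 in the controls and 6.18 to 6.74 with IFN-beta. Among the controls that sum was highest on control 3, as were those of neutrophil, conventional dendritic cell, B cell and monocyte markers. The T and NK cell and fibroblast sums were lowest there, and the plasmacytoid dendritic cell sum lay between. Ccl3, Ccl4, Ccl5 and Ccl9 were highest on control 3, Ccl6 lay between the other controls, and Ccl24 was lowest. Mcpt8, a basophil protease gene, rose by 3.66 (adjusted p = 0.000147), and Ccr3 and Il5ra, an eosinophil and basophil receptor gene, rose by 2.49 and 1.94. Of 11 neutrophil markers 8 rose and 0 fell (4 and 0 against control 3 alone), with sums of 8.93 to 9.36 in the controls and 9.73 to 10.03 with IFN-beta. Of 9 conventional dendritic cell markers tested, the cells best known for Ccl17 and Ccl22, 1 rose and 3 fell, with sums of 2.65 to 3.25 in the controls and 4.0 to 4.15 with IFN-beta and Xcr1 not above background on any array. The marker that rose was Ccr7, from 0.64, 0.41 and 1.21 to 3.86, 3.82 and 3.70, and the higher sum came from it. Cd209a, Zbtb46 and Clec9a fell at least 58.5-fold, 4.40-fold and 2.94-fold. Against control 3 alone the bounds were 75.1-fold, 2.69-fold and 2.67-fold. These 3 markers were not well above background on any IFN-beta array, and so passed the filter only through the controls.

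Of 5 T and NK cell markers tested, cells that make Ccl5, 1 rose and 2 fell. The 2 that fell, Klrb1c and Prf1, were well above background on 0 and 2 IFN-beta arrays. They thus passed the filter only through the controls. The summed level of the list was 1.12 to 1.32 in the controls and 1.42 to 1.88 with IFN-beta, with Ncr1 not above background on any array. Of 5 B cell markers 1 rose and 0 fell, with sums of 1.99 to 2.13 and 1.66 to 1.92 and Cd79a not above background anywhere. The 1 that rose, Ms4a1, was well above background on 2 controls, and so passed the filter only through the IFN-beta arrays. Of 8 plasmacytoid dendritic cell markers 4 rose and 0 fell, with a median of 0.61, and 0.28 against control 3 alone. Their sums were 6.33 to 6.48 in the controls and 7.0 to 7.33 with IFN-beta. The higher sum came mostly from Bst2, which was among those that rose, from 3.48, 3.26 and 3.92 to 5.98, 6.42 and 6.58. Siglech did not pass (limma adjusted p = 0.0835) but was lower on every IFN-beta array, from 5.66, 5.45 and 5.04 to 4.81, 4.96 and 4.50. Against control 3 alone, 2 of the fibroblast markers were called higher and 0 lower. Of 10 monocyte and macrophage markers 2 rose and 2 fell. Their summed level was 9.97 on control 3, 9.40 and 9.46 on controls 2 and 1, and 10.25 to 10.29 with IFN-beta, above every control. The higher sum with IFN-beta came mostly from Ly6c2, at 5.65, 5.59 and 5.99 in the controls and 8.57, 8.68 and 8.66 with IFN-beta. The median log2 fold change of the 10 markers was 0.12, beside 0.10 over all genes. On control 3 Ccl3, Ccl4 and Ccl9 were 0.60, 0.66 and 0.86 higher than the mean of the other controls, while Ccl6 differed by -0.02. The part of these cells in the chemokine differences was not tested. In RNA of a whole culture, more cells of a type and more RNA per cell cannot be told apart.

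**Figure D5:**
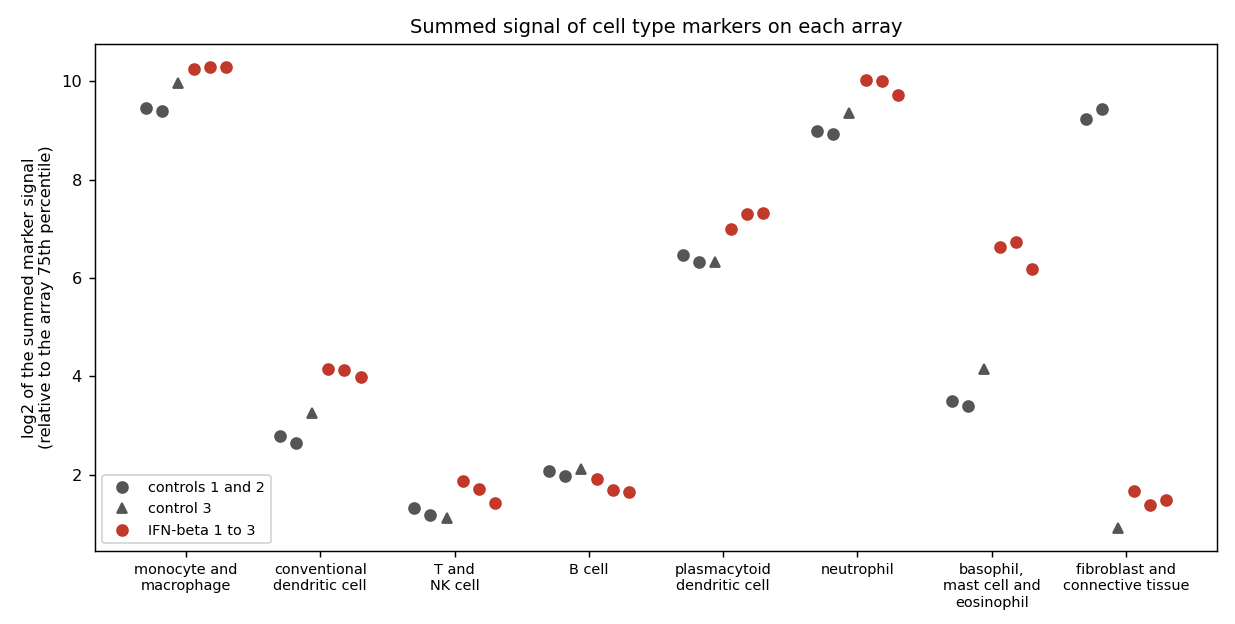
Log2 summed signal of the markers of 8 cell types on each array, relative to the array's 75th percentile (circles, controls 1 and 2; triangles, control 3; red, IFN-beta). Fibroblast markers are at 9.23 and 9.43 on controls 1 and 2 and at 0.93 on control 3, and basophil, mast cell and eosinophil markers are higher on all 3 IFN-beta arrays.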

How the data were processed

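Per the file headers, the authors read each array with Agilent Feature Extraction 12.0.3.1, which wrote an intensity for every spot without normalizing between arrays. A second deposited source gives log2 values for these arrays, and limma is named in the submitters' processing notes. Its columns have medians from 4.81 to 4.83 and follow the scaled signal of their own arrays (r from 0.9963 to 0.9989), so they are log2, uncentred per gene and run the same way. Its exact normalization stays unknown, and it served as an alternative. Spots marked as outliers were left out and spots of 1 probe averaged (59305 spots, 56605 probes). No probe was saturated. The values analysed are log2 processed signals minus each array's 75th percentile.

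Testing asked that a probe be well above background on all 3 arrays of either group, and a gene was represented by its probe with the highest mean, which gave 19503 genes. IFN-beta was compared with control by lmFit and eBayes in limma 3.58.1 (R 4.3.3, with data.table at version 1.17.8), with 4 residual degrees of freedom and limma's prior added, with Benjamini-Hochberg adjustment over all genes and a threshold of 0.05. The scripts were tested on simulated data. Promoters and motifs were read with Python 3.11.15 and Biopython 1.88, and figures drawn with matplotlib 3.10.9. Probe positions were copied from the files (mm9).

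The chemokines and the lists were chosen with earlier results of these data known. The rule for named genes took all 8 chemokines, up to 4 genes with the lowest p of each other list, the 3 genes most like each called chemokine and the nearest tested genes on either side. A gene that this rule would name is not reported here. Wfdc18, Tnf, Retnla, Ccl8, Ccl11, Ccl19, Ccl21a, the cell type markers and the value of Irf1 were named after their values were seen. Slides were taken from the files: the controls shared slide 1 with IFN-beta 1, and the other IFN-beta arrays were on slide 2. Precision is limited by the number of arrays. Alternatives covered scaling, background correction (normexp, offset 50), the filter, the probe rule, eBayes with trend, array weights, slides, replicate numbers and each array left out.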

Additional observations from a re-analysis of the deposited data

How the results depend on the processing

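Over 21 alternatives each, 103 of 126 values of the 6 tested chemokines kept their direction and their side of the threshold, 15 lost the call, 7 gained it and 1 was reversed. Ccl5 lost its call in 11 alternatives, Ccl4 in 2 (slide as a block and within slide 1), and Ccl6 and Ccl24 in 1 each (within slide 1). Ccl3 gained a call in 5 and Ccl9 in 2 (array weights and without control 3), and the reversed value was that of Ccl9 against control 3 alone, -0.16. The cause of these changes was not tested. The count of chemokines called was 4 of 6, 2 with slide as a block, 0 within slide 1, and from 3 to 7 with 1 array left out. The 7, without control 3, were 6 higher and 1 lower. The lower one was Ccl17, which was tested there only through controls 1 and 2, where it was high, and was dim on IFN-beta 3.

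Over all genes the count was 3864. It was 1697 with no filter on dim probes, 12736 with array weights (whose estimation stopped before it converged), 1040 with slide as a block and 287 within slide 1. It was 1928 against control 3 alone, 1999 with controls 1 and 2 averaged, and from 1834 (without control 1) to 10966 (without control 3) with 1 array left out. Leaving out control 2 gave 2018 genes, IFN-beta 2 1859 and IFN-beta 3 2111. The share of higher genes among those called was 59.5%, but 25.7% with spike-in scaling and 69.9% with normexp and percentile scaling, and the median of all genes was -0.22 and 0.18 there and 0.31 with no filter. With the replicate number as a block, 4 chemokines and 3267 genes were called. Same-numbered samples deviated together only weakly (r = 0.0718, 0.021 and 0.0718). The labels give them only a shared number, and these values cannot show whether they were paired. Every sample correlated best with its own number, but control 2 did so at 0.021, beside 0.0145 with IFN-beta 1. Deviations of 3 arrays from their own mean are bound to each other, so no pairing is read from this order. Ccl17 and Ccl22 were too dim on some arrays for a difference to be measured.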
